A study of Rattus norvegicus with 12 samples.

Results

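Transcripts of enzymes and carriers that set how much glucose the liver makes and how much it burns were examined in 12 livers of obese ZSF1 rats, 6 from females and 6 from males. The genes were taken by symbol from a list of 9: Pck1, G6pc, Fbp1, Pc, Gckr, Pfkfb1, Pklr, Slc2a2 and Slc37a4. Of these, 8 matched a row among the 16478 gene rows of the count tables, and Gckr, a regulator of hepatic glucose use, matched none and was not analysed here. All 8 passed the filter on low counts. The ZSF1 rat is a hybrid strain whose obesity comes from faulty leptin receptor alleles of its 2 parental strains, so the obese genotype is shared by both groups. Both groups were 16 weeks old, untreated, and had free access to water and chow. The sources used here do not say whether food was withdrawn before death, nor the hour of collection. Each library came from 1 animal.

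Hepatic glucose production and glycolysis share most of their enzymes and run in opposite directions through a few steps that differ. Production starts when pyruvate carboxylase and phosphoenolpyruvate carboxykinase carry pyruvate past the pyruvate kinase step, passes through fructose bisphosphatase, and ends when glucose-6-phosphatase releases free glucose inside the endoplasmic reticulum. Use is pulled forward by phosphofructokinase and the liver form of pyruvate kinase. Glucagon and glucocorticoid are known to raise transcription of the production genes, insulin to lower it, and glucose itself to induce the pyruvate kinase gene.

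The stretch of 250 bases before the transcription start is shown for 3 members on which the account below turns: Pck1 and G6pc, with a wide spread between animals, and Pklr, which was not called. The sequences are RefSeq's for build GRCr8, of the plus strand and 5′ to 3′, and capitals mark the motifs found. Pck1 lies at chr3:182348322-182348571, G6pc (G6pc1 in RefSeq) at chr10:86807409-86807658 and Pklr at chr2:176841014-176841263.
Pck1: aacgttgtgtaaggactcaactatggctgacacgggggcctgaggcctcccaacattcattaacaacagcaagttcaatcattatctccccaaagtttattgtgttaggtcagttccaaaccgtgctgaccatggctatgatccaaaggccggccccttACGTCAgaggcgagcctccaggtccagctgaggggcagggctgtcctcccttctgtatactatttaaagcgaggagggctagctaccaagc
G6pc: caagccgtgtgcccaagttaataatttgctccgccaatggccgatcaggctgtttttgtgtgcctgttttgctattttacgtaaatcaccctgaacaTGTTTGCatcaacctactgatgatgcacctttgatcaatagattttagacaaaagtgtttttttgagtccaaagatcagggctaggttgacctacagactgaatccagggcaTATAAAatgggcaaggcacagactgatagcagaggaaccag
Pklr: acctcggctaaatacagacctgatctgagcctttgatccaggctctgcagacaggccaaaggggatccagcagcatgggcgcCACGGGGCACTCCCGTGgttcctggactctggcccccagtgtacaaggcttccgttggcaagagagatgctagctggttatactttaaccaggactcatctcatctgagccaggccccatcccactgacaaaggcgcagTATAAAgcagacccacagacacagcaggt
In the Pck1 stretch the capitals mark the core of the cAMP response element, ACGTCA, which began 91 bases before the start. In G6pc they mark a forkhead motif, TGTTTNC, that began 153 bases before the start, and TATAAA at 41 bases. In Pklr they mark a pair of E box parts set 5 bases apart, of the kind known from carbohydrate response elements, that began 168 bases before the start, and TATAAA at 29 bases. Motifs were searched on both strands, and none of those marked overlapped another. Of 33469 RefSeq promoter stretches of this length, 6.95% held ACGTCA, 18.3% TGTTTNC, 12.9% TATAAA and 0.0209% the paired E box parts, the last of which was added to the search with the Pklr stretch in view. The E box CACGTG (5.59% of stretches), the STAT motif TTCNNNGAA (7.67%), the HNF4 motif CAAAGTCCA (0.338%) and the HNF1 motif (0.00299%) were not found in these 3. RefSeq stretches were found for 8 of the 9 genes. Among the members not shown, ACGTCA was also found before Slc37a4, and no searched motif before Fbp1, Gckr, Pfkfb1 or Slc2a2. These are matches of letters and say nothing of binding.

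Female libraries held between 6763879 and 24837602 reads counted in genes and male libraries between 11381428 and 29232871. Values are given in CPM, a gene's reads scaled to the same library total in every animal after TMM normalisation. CPM is not corrected for gene length, so levels are compared between animals and never between genes. Adjusted p-values are Benjamini-Hochberg values of edgeR's quasi-likelihood test over the 9943 genes left by the filter on low counts, a gene is called at an adjusted p under 0.05, and log2 fold changes are females over males. Male 4 stood apart from the other males in the acute phase gene Orm1, at 9552 CPM against 1358 to 1599 CPM in the other 5 males. It and female 12, whose levels of several members lay apart from those of the other females, are followed through the results. For a gene in which either was the animal of its sex nearest the other sex, leaving it out widens the difference by construction. Fits without these animals are then a description and no further support. RNA was taken from liver tissue, in which fewer cells of a type and less RNA per cell cannot be told apart.

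Members of the production arm other than G6pc were higher in males, and the gene of the last glycolytic enzyme was not called. Of the 8 members, 6 were called, all higher in males, where 43.2% of all tested genes were called and 22.7% were higher in males. The other 2, G6pc and Pklr, did not pass the test. None was higher in females by edgeR, DESeq2 or limma-voom, nor at an unadjusted p under 0.05 in any of the 3. Fbp1, Pck1 and Slc37a4, 3 of 8, had every male above every female, and 22.8% of all tested genes had groups that did not overlap in either direction. The median log2 fold change of the 8 was -0.65, beside -0.013 over all genes tested.

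Pck1 encodes the cytosolic phosphoenolpyruvate carboxykinase, which turns oxaloacetate into phosphoenolpyruvate. It ranged from 257 to 1742 CPM in females, with a median of 475, and from 1806 to 2897 CPM in males, with a median of 2369. The groups did not overlap, but only because female 12, at 1742 CPM, stayed just under the lowest male, and the next female stood at 581 CPM. Pck1 was 3.73-fold higher in males (log2 -1.90, SE 0.431, adjusted p = 0.00408), and 5.73-fold higher without female 12 (adjusted p = 2.3e-06). The 5 other females averaged 413 ± 141 CPM (SD, n = 5).

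Pc encodes pyruvate carboxylase, the mitochondrial enzyme that makes the oxaloacetate on which carboxykinase acts. It ran from 479 to 768 CPM in females (median 553) and from 733 to 932 CPM in males (median 889), so that female 12, the highest female, and male 4, the lowest male, crossed over. Their exchange was the whole of the overlap, since the other 5 females reached 589 CPM and the other 5 males went down to 821 CPM. Pc was 1.48-fold higher in males (log2 -0.57, SE 0.103, adjusted p = 0.000501).

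Fbp1, which encodes the fructose bisphosphatase that opposes phosphofructokinase, separated the sexes with a wide gap. It lay between 680.4 and 780.4 CPM in all 6 females (median 767) and between 1155 and 1425 CPM in all 6 males (median 1218). Female 12, at 769 CPM, lay among the other females for this gene, and male 4 was at the low end of the males, at 1155 CPM. Fbp1 was 1.65-fold higher in males (log2 -0.73, SE 0.0707, adjusted p = 1.81e-06), the smallest adjusted p among the members.

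Glucose-6-phosphatase works as a pair: Slc37a4 encodes the carrier that brings glucose 6-phosphate into the endoplasmic reticulum, and G6pc the catalytic subunit that cleaves it there. Slc37a4 ran from 254 to 291 CPM in females (median 267) and from 343 to 472 CPM in males (median 359), with no overlap, and was 1.41-fold higher in males (log2 -0.50, SE 0.0803, adjusted p = 0.000189). G6pc ran from 158 to 430.2 CPM in females (median 189) and from 165 to 728 CPM in males (median 381). The G6pc groups overlapped through the same 2 animals: female 12 held 430.2 CPM where the other 5 females reached 219 CPM, and male 4 held 165 CPM where the other 5 males went down to 316 CPM.

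G6pc was 1.90-fold higher in males in the fit, with an adjusted p of 0.0533, so it was not called (log2 -0.93, SE 0.355, 95% interval -1.70 to -0.15 before adjustment). Each of DESeq2 (adjusted p = 0.0422) and limma-voom (0.0375) called it. It was also called without female 12 (2.32-fold, edgeR adjusted p = 0.0117), without male 4 (2.12-fold, 0.0179) and without both (2.58-fold, 0.00149). Female 12 was the highest female and male 4 the lowest male for G6pc, so leaving them out had to widen the difference. With any 1 of the other 10 animals left out G6pc was not called. The adjusted p was 0.116 without male 5, the highest male, and 0.106 without male 6. Whether edgeR called the catalytic subunit thus depended on which animals were kept, while its carrier was called with any 1 animal left out.

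Slc2a2 encodes GLUT2, the plasma membrane carrier that lets glucose move in either direction. It ran from 378 to 577 CPM in females (median 455) and from 486 to 574.5 CPM in males (median 555), and female 7 was the highest animal of all. The difference was 1.18-fold toward males (log2 -0.23, SE 0.087, adjusted p = 0.0413). That call was lost with upper quartile factors (0.0678), library totals (0.121) and a filter at a mean of 1 CPM (0.0511), and without any 1 of 10 animals (females 8, 9, 10, 12 and 13 and males 1, 3, 4, 5 and 6). Without female 7 the adjusted p was 0.00549.

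**Figure D1:**
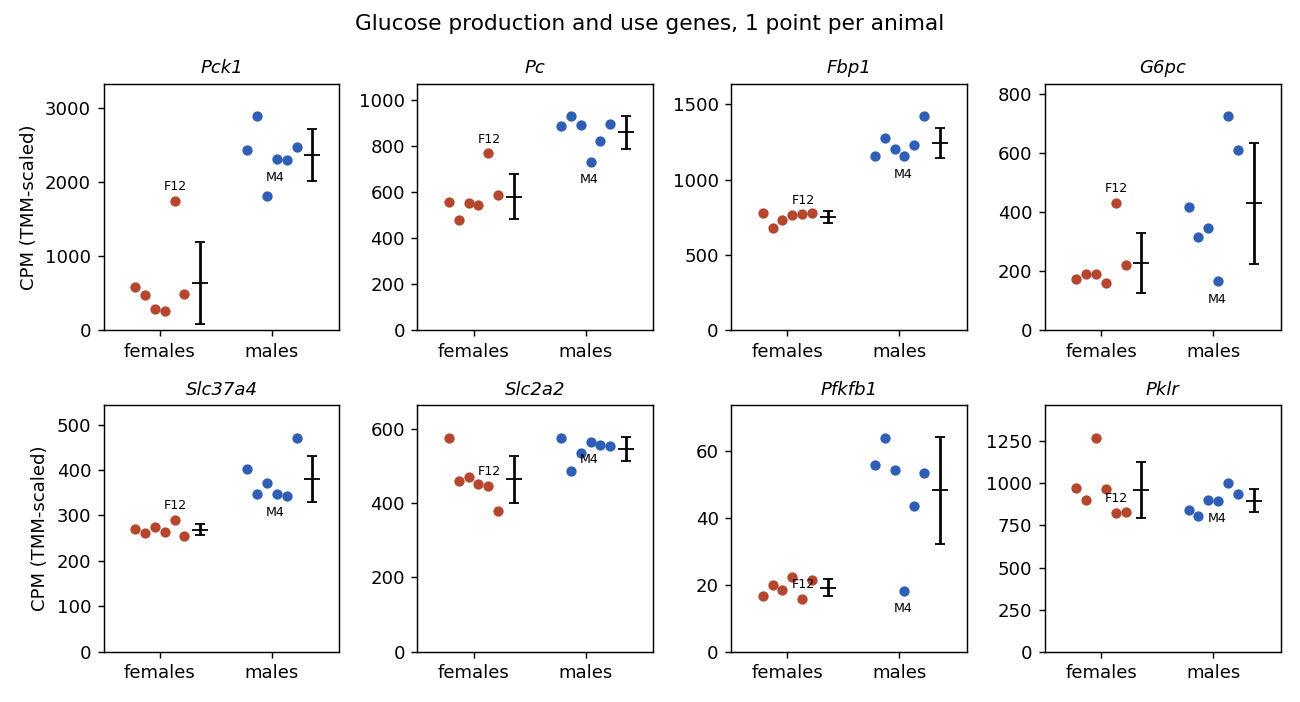
Level of each of the 8 measured members in CPM (vertical axis, from 0), with 1 point per animal and the mean ± SD of each sex as a black bar; F12 is female 12 and M4 is male 4. Fbp1 and Slc37a4 separate the sexes in every animal, Pck1 does so with female 12 at 1742 CPM just under the lowest male, and Pklr lies at 825 to 1273 CPM in females and 809 to 1004 CPM in males.

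Of the members not yet described, the regulator Pfkfb1 was higher in males and the enzyme gene Pklr was not called. Pfkfb1 encodes the liver form of the enzyme that both makes and breaks fructose 2,6-bisphosphate, the signal that activates phosphofructokinase and inhibits fructose bisphosphatase. Since the enzyme works both ways, the level of Pfkfb1 alone cannot be assigned to production or to use. It ran from 15.9 to 22.2 CPM in females (median 19.2) and from 18.3 to 64.1 CPM in males (median 53.9). Male 4, at 18.3 CPM, lay inside the female range, and the other 5 males lay at 43.6 CPM or above. Pfkfb1 was 2.51-fold higher in males (log2 -1.33, SE 0.240, adjusted p = 0.000876), and 2.80-fold without male 4 (adjusted p = 4.23e-08). Female 12, at 15.9 CPM, was the lowest of all 12 animals for this gene.

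Pklr encodes the liver pyruvate kinase, which closes glycolysis by turning phosphoenolpyruvate into pyruvate. It ran from 825 to 1273 CPM in females (median 933) and from 809 to 1004 CPM in males (median 899), and the groups overlapped. The log2 fold change was 0.10 (SE 0.102, adjusted p = 0.469) with a 95% interval from -0.12 to 0.32, an interval that holds differences in both directions. Female 9, at 1273 CPM, was the only animal above 1004 CPM. Pklr is also transcribed in red cell precursors, and the summed level of 4 erythroid markers was 299.6 to 712 CPM in females and 516 to 1261 CPM in males. Of those markers 2 were higher in males, beside 22.7% of all tested genes, and the other 2 did not pass the test. The part of red cell precursors in the Pklr values was not tested.

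Genes that overlap a member in the GRCr8 annotation could share reads with it, since the strand setting of the counting was not given. Lrfn4, which overlaps Pc, was counted at 2.71 ± 0.996 CPM in females and 3.08 ± 0.996 CPM in males (SD, n = 6 each), and Hcn3, which overlaps Pklr, at 21.6 ± 4.52 and 25.6 ± 3.09 CPM. Apex2, which overlaps Pfkfb1, matched no row. The other 5 measured members overlapped no annotated gene.

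Other genes of the glycolytic chain, part of which production shares, showed mostly small differences. Isoforms of the member enzymes were counted with them. Of 22 tested genes, 9 passed the test as higher in males and 2 as higher in females, against 22.7% and 20.5% of all tested genes. The median log2 fold change was -0.26. The isoform genes Pck2, Fbp2 and G6pc3 were among those higher in males, and Pfkfb2 and Pfkfb4 were the 2 higher in females. Pfkl, which encodes liver phosphofructokinase, was 1.28-fold higher in males (adjusted p = 0.000177). Tpi1, Gapdh and Eno1, which act between triose phosphates and phosphoenolpyruvate in both directions, were 1.29-fold, 1.31-fold and 1.30-fold higher in males, without overlap. Of the 22 genes, 6 had groups without overlap, beside 22.8% of all tested genes. Gapdh has many processed pseudogenes and Pgam1 has some, so how their reads were divided is uncertain. Pgk1, which lies between them in the pathway, was not called (244 ± 12.0 CPM in females, 236 ± 17.2 CPM in males; SD, n = 6 each), nor was Gpi, the isomerase gene of the hexose phosphates (242 ± 39.2 and 275 ± 25.5 CPM). Without female 9, the highest female for Gpi at 318 CPM, that gene was called as higher in males (adjusted p = 0.0107).

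Other isoforms of the member enzymes did not all share the members' direction. Pck2, the mitochondrial carboxykinase, was 1.41-fold higher in males (adjusted p = 0.00123), Fbp2, the muscle bisphosphatase, 2.84-fold (adjusted p = 0.000149) at only 0.654 ± 0.192 CPM in females and 1.94 ± 0.441 CPM in males, and G6pc3, the ubiquitous phosphatase, 1.39-fold (adjusted p = 0.0212). The G6pc3 call was lost without female 13 and without female 12 and male 4 together (highest adjusted p 0.0551). Genes of 2 other bifunctional enzymes went the opposite way from Pfkfb1. Pfkfb2 was 1.52-fold higher in females (adjusted p = 0.000149) and Pfkfb4 1.82-fold (adjusted p = 0.0195, and 0.0501 without female 8) at 1.30 ± 0.409 against 0.697 ± 0.236 CPM. Pgam1, a phosphoglycerate mutase gene with few counts here (0.824 ± 0.251 CPM in females), was 1.82-fold higher in males. At such levels counting error is large: 3 reads correspond to 0.103 to 0.444 CPM in these libraries.

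**Figure D2:**
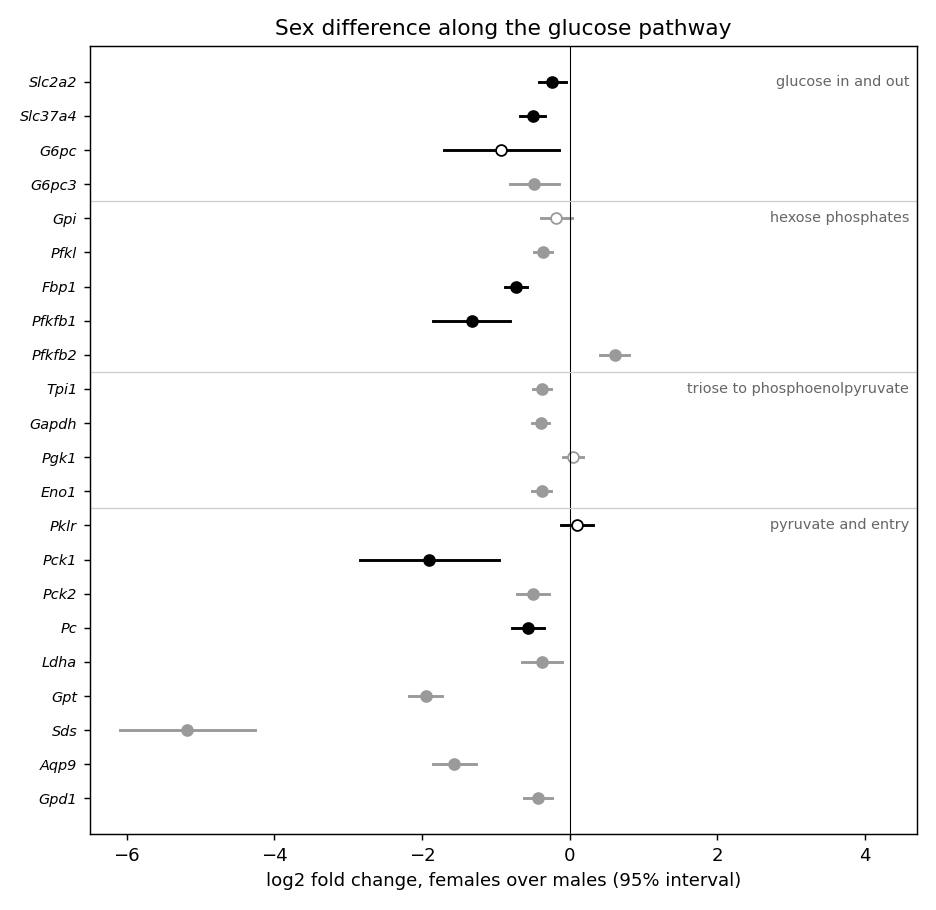
Log2 fold change of females over males with its 95% interval (horizontal axis) for selected genes. They are grouped by step from glucose entry to pyruvate, with genes that feed carbon in placed last. Not every measured gene is drawn, and the 2 entry genes higher in females are left out. Black points are members, grey points other genes, and open points had an adjusted p of 0.05 or more. Pfkfb2 stands at 0.61, the members other than Pklr lie left of 0, and Sds, at -5.18, lies farthest left.

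Genes that feed carbon into the production arm were mostly higher in males. Of 17 tested genes for entry of fructose, glycerol, lactate and amino acids and for the shuttles of oxaloacetate, 11 passed the test as higher in males and 2 as higher in females, beside 22.7% and 20.5% of all tested genes, with a median log2 fold change of -0.36. Sds, serine dehydratase, which makes pyruvate from serine, ran from 2.49 to 6.93 CPM in females and from 75.1 to 224 CPM in males, a 36.3-fold difference (adjusted p = 2.27e-06). Gpt, alanine aminotransferase, which makes pyruvate from alanine, was 3.86-fold higher in males (109.9 ± 14.9 against 424 ± 52.1 CPM; SD, n = 6 each). Aqp9, the channel by which glycerol enters hepatocytes, was 2.95-fold higher (58.2 ± 11.8 against 172 ± 26.9 CPM), and Got1, an aminotransferase of the shuttle that exports oxaloacetate as aspartate, 2.11-fold. Those 4, the called genes of the list with the largest fold changes, did not overlap between the sexes. Of all 17, 9 did not, beside 22.8% of all tested genes. Gpd1, which joins glycerol to the triose phosphates, was 1.35-fold and Khk, ketohexokinase, 1.29-fold higher in males. Both were picked after their values were seen. The 2 genes of this list that were higher in females had smaller fold changes than Got1 and are not named, and 4 genes were not called. Dak, the triokinase gene that serves fructose, was not called (832 ± 98.7 and 862 ± 73.3 CPM).

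Ratios between members within a library do not depend on how libraries are scaled. They are given on the log2 scale as a description, and since they also carry the lengths of both genes, only their differences between animals can be read. The ratio of Pck1 to Pklr, at the phosphoenolpyruvate step, lay between -2.20 and 1.08 in females (median -0.86) and between 1.01 and 1.84 in males (median 1.38), with female 12 inside the male range. That of Pc to Pklr had a female range of -1.21 to -0.10 and a male range of -0.29 to 0.21, again with female 12 alone among the males. That of G6pc to Pklr overlapped through female 12 (-0.94) and male 4 (-2.45). The ratio of Fbp1 to Pfkfb1, whose enzyme works both ways, was higher in every female than in all males but male 4. The female range of this ratio was 5.09 to 5.60 and the male range 4.32 to 5.98. Male 4 held the 5.98, and the other 5 males reached 4.82.

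**Figure D3:**
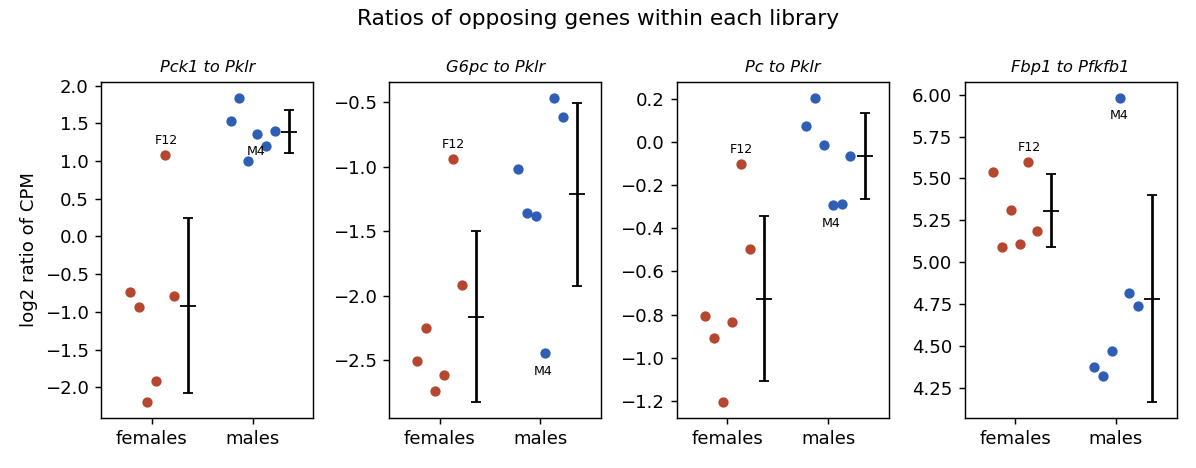
Log2 ratio of the CPM of 2 members in each library (vertical axes, each with its own range), with 1 point per animal and the mean ± SD of each sex; F12 is female 12 and M4 is male 4. In the ratio of Pck1 to Pklr female 12 lies at 1.08, inside the male range, and in the ratio of Fbp1 to Pfkfb1 male 4 lies at 5.98, above every female.

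Female 12 and male 4 did not depart from their sex in every gene. Female 12 was the highest female for 4 of the 8 members (Pck1, G6pc, Pc and Slc37a4) and the lowest for 2 (Pfkfb1 and Pklr). Its levels of Pck1 and G6pc lay nearest to or within the male range, whereas Fbp1 (769 CPM), Pfkfb1 (15.9 CPM), Sds (2.71 CPM), Gpt (82.4 CPM) and Aqp9 (61.5 CPM) lay within the female range or below that of the other females. Igfbp1, a secreted binding protein gene that insulin represses, stood at 69.5 CPM in female 12 and between 4.34 and 15.4 CPM in the other 5 females. Irs2, an insulin receptor substrate gene known to be induced in fasting, stood at 8.95 CPM in female 12 and 7.15 CPM in female 13, both within the male range of 6.13 to 11.4 CPM, and at 3.76 CPM or less in the other females.

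Male 4 was the lowest male for 4 of the 8 members (G6pc, Fbp1, Pc and Pfkfb1). G6pc and Pfkfb1 were inside the female range there, whereas Pck1 (2307 CPM), Sds (195 CPM) and Aqp9 (222 CPM) were at the level of the other males or above it. Tat, a tyrosine aminotransferase gene induced by glucocorticoid and glucagon, was lowest in male 4 of all animals, at 396 CPM, against 611 to 1402 CPM in the other 5 males. The acute phase level of that animal is given above, and its part in these values was not tested. Without both animals 5 members remained above the threshold of the 6 called before, Slc2a2 being lost (adjusted p = 0.0805), and G6pc was added.

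**Figure D4:**
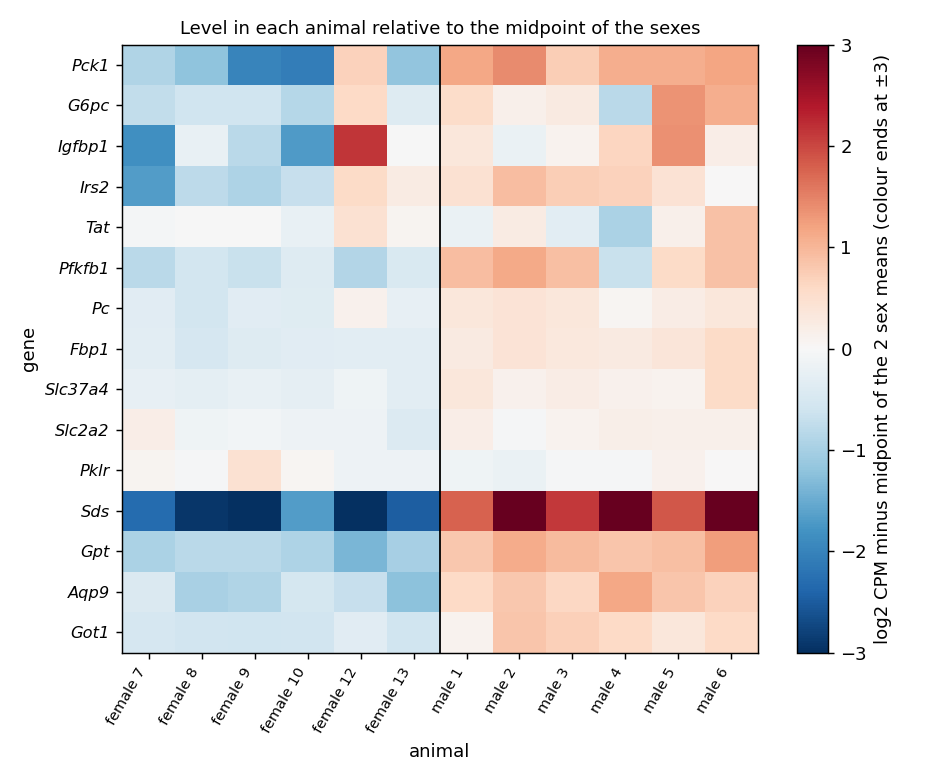
Level of 15 genes (rows) in each animal (columns), as log2 CPM minus the midpoint of the means of both sexes; red is above and blue below the midpoint, and the colour ends at ±3. In female 12 Pck1, G6pc, Igfbp1 and Irs2 are red as in most males while Sds, Gpt, Aqp9 and Fbp1 stay blue, and in male 4 G6pc, Tat and Pfkfb1 are blue while Pck1 and Sds stay red.

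Of 23 tested transcription factors and coactivators known to act on these genes, 8 passed the test as higher in males and 5 as higher in females, beside 22.7% and 20.5% of all tested genes. The share higher in females was thus near that of all genes, and the median log2 fold change was -0.22. Onecut1, a liver homeobox factor, was 3.71-fold higher in females (52.1 ± 11.6 against 14.1 ± 13.4 CPM; adjusted p = 0.0191). By limma-voom that fold was 6.08, and without female 12 and male 4 the adjusted p by edgeR was 0.0498. Hnf4a, a nuclear receptor that acts on Pck1 and G6pc among many liver genes, was 1.49-fold higher in females (adjusted p = 0.00415). Nr0b2, the orphan receptor that restrains other nuclear receptors, was 2.79-fold higher in males (adjusted p = 0.0077), Nr4a1, which glucagon induces, 2.47-fold at 0.58 ± 0.224 and 1.38 ± 0.681 CPM, and Cebpb, a factor that binds the Pck1 promoter, 1.54-fold (adjusted p = 0.00137). In male 4 Cebpb stood at 116 CPM, the highest of all animals. Nr3c1, the glucocorticoid receptor gene, was not called (132 ± 7.50 and 113 ± 20.3 CPM). It was called as higher in females without male 3, the highest male for it (adjusted p = 0.00087), and with upper quartile factors (0.0407) or library totals (0.0493). Mlxipl, Srebf1 and Sirt1 matched no row and were not analysed here.

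Markers of liver zones and of other tissues were measured beside these genes. The production arm is known to be more active in hepatocytes near the portal vein than in those near the central vein. Of 7 periportal markers 4 were higher in males, beside 22.7% of all tested genes, and the other 3 did not pass the test. The summed level of these markers was 4908 to 6728 CPM in females and 5284 to 8222 CPM in males. Sds is one of those markers and is also counted among the entry genes above. Of 5 tested pericentral markers 2 were higher in each sex, beside 20.5% of all tested genes higher in females and 22.7% in males. Glul, a further pericentral marker, matched no row. The summed level of the 6 matched pericentral markers, in which abundant genes weigh most, was 2713 to 3699 CPM in females. In males it was 1542 to 2589 CPM, without overlap. The part of the zones in the members' differences was not tested. Hepatocyte markers were present at high levels in all animals. The summed level of 7 genes was 233910 to 311660 CPM in females and 201300 to 255770 CPM in males. Of these, 2 were higher in females and 3 in males, beside 20.5% and 22.7% of all tested genes. Kidney cortex also transcribes the production genes, and islets transcribe Slc2a2. The summed level of 5 kidney markers was 17.0 to 18.7 CPM in females and 16.9 to 26.6 CPM in males. Of these, Slc34a1 had no read in any library, and Lrp2, the only 1 that passed the filter, was 1.27-fold higher in males (adjusted p = 0.00593) and held 16.7 CPM or more in every library. The part of kidney RNA was not tested. Of 5 islet markers, Ins1, Gcg, Sst and Iapp had no read in any library, and Ins2 reached 0.138 CPM at most. Endothelial markers were higher in females in 3 of 3 tested genes, beside 20.5% of all tested genes (summed level 70.4 to 87.5 CPM, against 24.9 to 71.0 CPM in males). Stab2 and Kdr, further endothelial markers, matched no row. Other lists of non-parenchymal cells were mixed, beside the same shares of all tested genes. Of 5 Kupffer cell markers 2 were higher in females and the other 3 were not called. Of 5 stellate cell markers 1 was higher in females and 2 in males, and none of 3 tested bile duct markers was called. The part of non-parenchymal cells was not tested.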

How the data were processed

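Liver RNA-seq of 12 rats was used as deposited: whole-number counts of reads per gene, 1 file per animal, made by the authors. The submitters' processing notes name Bowtie2 2.0.2, DESeq and build rn4. For the counting program, annotation and strand setting nothing is given in the sources used here. The 5 rows naming no gene held 27.1% to 31.7% of all counts and were left out. Counts were tested with edgeR 4.0.16 (quasi-likelihood, robust, TMM factors; filterByExpr with minimum count 10 and minimum total 15) in R 4.3.3, females against males, and p-values were adjusted by Benjamini-Hochberg over 9943 genes. SEs were taken from the F statistic and intervals are 95%. Calls and fitted folds were tried on simulated counts with known differences, while SEs and intervals were not checked in that way. Alternatives were DESeq2 1.42.0, limma-voom (limma 3.58.1), other scaling and filters, and leaving out each animal. P-values of these fits set the difference between the sexes against the spread between animals of the same sex, which is moderated across genes.

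The members and lists were chosen with earlier results of these data known. All members are named, and of each other list up to 4 called genes with the largest fold change and the most abundant uncalled gene. Some items of the lists are not reported here and were left out of the lists' counts. Pfkl, Tpi1, Gapdh, Eno1, Pgk1, Pck2, G6pc3, Ldha, Gpd1, Khk, Igfbp1, Hnf4a, Pdk2 and Orm1 were chosen after their values were seen. Promoter stretches were limited to the 250 bases before the start. RefSeq's coordinates are of GRCr8, not of the authors' build.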

Additional observations from a re-analysis of the deposited data

Results flagged for a closer look

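In 6 of 74 groups of 6 animals, 1 animal lay far from the other 5 on the log2 scale, measured by its gap to the nearest animal over the whole range. Chance alone would mark about 1 in 20 groups. Female 12 accounted for 3 of them. It held 430.2 CPM of G6pc (158 to 219 CPM in the other females), 82.4 CPM of Gpt (108 to 123) and 93.1 CPM of Got1 (78.2 to 82.9).

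Male 4 held 18.3 CPM of Pfkfb1 (43.6 to 64.1 CPM in the other males). Its log2 ratio of Fbp1 to Pfkfb1 was 5.98, against 4.32 to 4.82. Male 3 held 152.8 CPM of Nr3c1, the glucocorticoid receptor gene, against 97.9 to 113 CPM in the other males.

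Outside the gene counts, reads listed as ambiguous made up 1.74% ± 0.337 of male counts (SD, n = 6), against 0.359% to 0.388% in the 6 females. The lowest male stood at 1.24%, and the part of these reads in the members' values was not tested.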

How the results depend on the processing

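Of 266 counts of called genes over the alternatives, 261 stayed within 1.5 times their first value. The number of members higher in males was 5 to 6 with 1 animal left out. Genes of the glycolytic list higher in females numbered 4 without female 12 and male 4 together and 1 to 4 with 1 animal left out (4 without male 4, 1 without female 8), instead of 2. Those of the entry list numbered 1 to 2 with 1 animal left out. Over all genes, males had more calls than females in edgeR with TMM, but fewer with upper quartile factors (2030 against 2250), library totals (1987 against 2082), without male 4 (2238 against 2389) and without it and female 12 (2231 against 2403). The log2 fold change of Tat, near 0 (adjusted p = 0.955), changed sign with upper quartile factors (0.0065), library totals (0.0035) and limma-voom (0.086), was -0.24 without female 12 and male 4, and ran from -0.15 to 0.21 with 1 animal left out. That of Igfbp1 ran from -1.20 to 0.079. No paired analysis was possible because the females and males share no animal number. The planned ratio and relation that involve Gckr could not be computed. Depth limits the genes near 1 CPM, such as Pgam1 and Pfkfb4.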

Other observations

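Genes that decide what becomes of pyruvate in mitochondria leaned toward females. Of 13 tested genes of pyruvate import and the pyruvate dehydrogenase complex, 7 were higher in females and 3 in males, where 20.5% and 22.7% of all tested genes were. Dlat, the acetyltransferase core of the complex, was 1.76-fold higher in females (adjusted p = 0.00508 by edgeR). It ran from 29.7 to 71.7 CPM in females and from 23.5 to 35.7 CPM in males, so the groups overlapped. The kinases that switch the complex off split: Pdk4 was 1.73-fold and Pdk1 1.49-fold higher in females, and Pdk2 1.32-fold higher in males. Pdp2, a phosphatase that switches it on, was 1.58-fold higher in females. Brp44l, a subunit of the pyruvate carrier (now Mpc1), was not called (338 ± 54.6 CPM in females and 291 ± 26.2 CPM in males; SD, n = 6 each). Without female 12 it was called as higher in females (1.21-fold, adjusted p = 0.0193), as it was without female 12 and male 4 together (adjusted p = 0.0168).

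Genes known to answer to glucose, insulin or glucocorticoid were called about as often as genes at large: of 13 tested, 3 were higher in each sex, beside 20.5% of all tested genes higher in females and 22.7% in males, and the median log2 fold change was -0.021. Arrdc4, which glucose induces, was 5.14-fold higher in females (6.89 ± 1.01 against 1.35 ± 0.344 CPM; adjusted p = 6.15e-08), and Insr, the insulin receptor gene, 1.48-fold. Fkbp5, which glucocorticoid induces, was 1.69-fold higher in males. Irs2 was 1.84-fold higher in males (adjusted p = 0.0286), a call lost without any 1 of 6 animals (females 8, 9 and 10 and males 2, 3 and 4). Tat stood at 790 ± 133 CPM in females and 802 ± 345 CPM in males. Igfbp1 was not called with all animals (adjusted p = 0.845), and without female 12 it was 2.29-fold higher in males (adjusted p = 0.0287).

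Within a sex, 10 relations between members over 6 animals were computed on log2 CPM, and none had an adjusted p under 0.05. The closest was Pck1 with G6pc in females (r = 0.892, exact permutation p = 0.0444, adjusted 0.438; rho = 0.60, p = 0.242, adjusted 0.495), which rested on females 10 and 12: without them r was -0.17. In males the same pair gave r = 0.038 (exact permutation p = 0.961).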
